A study of Aspergillus oryzae with 8 samples.

Results

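Transcripts of Aspergillus oryzae grown on the surface of agar were compared with those of the same fungus grown submerged in shaken liquid, both without dithiothreitol (DTT). The comparison used 4 of the 8 libraries of the series, the 2 whose titles name solid culture control and the 2 whose titles name liquid culture control, and every gene in them. All libraries came from strain RIB40, a wild-type strain used in food fermentation, in a defined medium with 2.0% glucose as sugar, 0.3% nitrate as nitrogen source and a pH of 5.5. For the agar group, spores were spread on cellophane laid over agar plates and kept at 30 °C for 40 h. For the liquid group the culture was 30 mL of medium in a 100 mL flask, shaken at 200 rpm, at the same temperature and for the same time. The other 4 libraries came from mycelium of either culture given 20 mmol/L DTT, a reducing agent that disturbs protein folding. For the agar culture the labels give a soak in 20 mL of medium with this treatment, and none for the untreated agar libraries. They entered the fit for the filter on low counts and for the spread. Their own values gave the contrast between the cultures a second time, with the agar mycelium soaked.

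A fungus on a surface meets air on one side and nutrients on the other, and it can form aerial hyphae and spores there, while a shaken culture grows as submerged hyphae or pellets. Filamentous fungi often keep the genes of 1 biosynthetic pathway side by side, so that a whole stretch of neighbouring genes can be read in one culture and be silent in another. Such clusters hold, for example, the genes for nonribosomal peptides, for siderophores (small molecules that bind and import iron) and for pigments.

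The agar libraries held 6176818 and 8216798 reads and the liquid libraries 5880753 and 7837291 (replicates 1 and 2), of which 8.21% to 27.1% fell on rRNA genes. Read counts are given as CPM, scaled to library size by TMM, in which 3 reads amount to 0.316 to 0.535 CPM. Replicate 1 of each culture was made with inserts of 500 bp and replicate 2 with inserts of 200 bp. The log2 CPM of all genes correlated at 0.932 between the agar libraries, at 0.925 between the liquid libraries and at 0.809 to 0.851 between cultures. The labels do not tell whether replicates were grown separately, so a p-value here covers the spread between libraries, which may be technical. In RNA from a whole culture, fewer cells of a type and less RNA per cell cannot be told apart.

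On agar, a small set of genes that were nearly silent in liquid was transcribed at low to moderate levels, while some genes with many reads in liquid, such as the zinc transporter gene zrfA, were lower. Of 9438 genes tested, 210 were higher on agar (2.23% of tested genes) and 157 were lower (1.66%), 3.89% in all, by the quasi-likelihood test of edgeR (Benjamini-Hochberg adjusted p under 0.05). In what follows, higher and lower refer to agar against liquid and are used only for genes that passed this threshold, and fold changes are log2 values, agar minus liquid, ± SE. The smallest log2 change called was 1.72 in size, and the 2 agar libraries did not overlap with the 2 liquid libraries in any of the 367 genes. Over all tested genes the libraries were likewise apart in 26.7%, with agar above, and in 23.5%, with agar below. The replicate number, which coincides with insert size, was also fitted as a block that pairs the libraries. With this block 771 genes were called (8.17%), 385 higher (4.08%) and 386 lower (4.09%), and DESeq2 called 890 (9.43%). Leaving out 1 library gave 91 genes without agar replicate 1 (79 higher, 12 lower), 67 without agar replicate 2 (64 and 3), 116 without liquid replicate 1 (80 and 36) and 184 without liquid replicate 2 (71 and 113). Without each library in turn, 47 higher genes and 2 lower genes were called every time. These 2, named after their values were seen, were AO090010000156, with 2.06 and 0.422 CPM on agar and 84.6 and 91.7 CPM in liquid (-6.22 ± 0.79), and AO090120000429, with 7.22 and 13.9 CPM against 308 and 296 CPM (-4.83 ± 0.52).

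**Figure D1:**
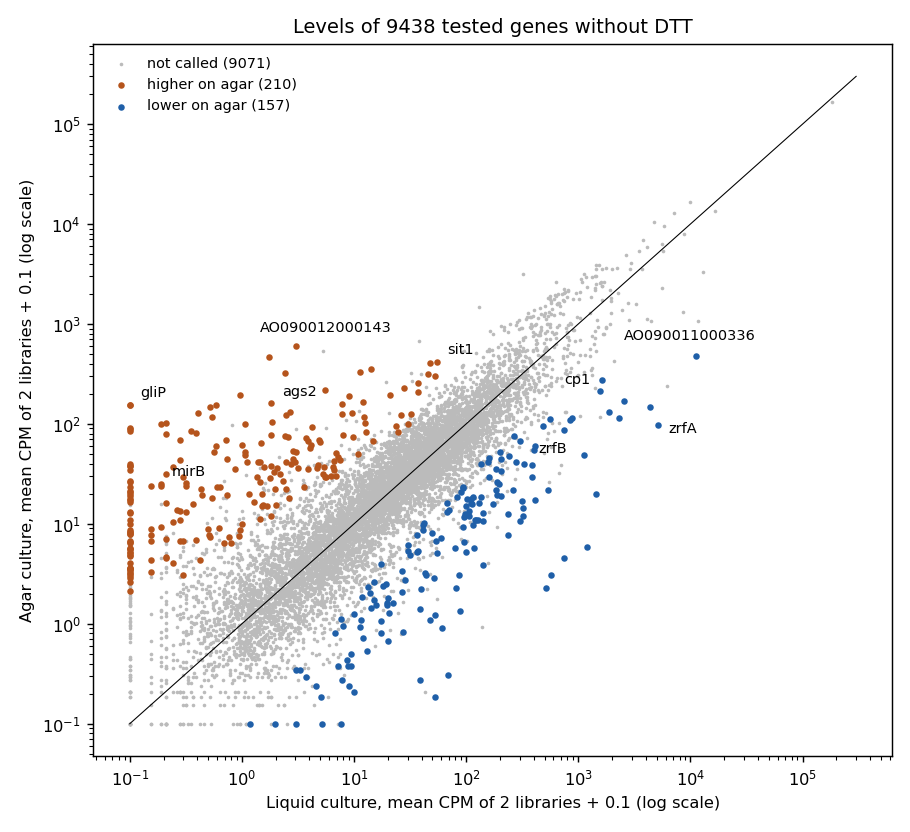
Mean level of each of 9438 tested genes in liquid culture (x axis) and on agar (y axis), as CPM + 0.1 on log scales, over 2 libraries each; the line marks equal levels. Higher genes (210, brown) lie mostly at the left, where liquid levels are near 0, and the 157 lower genes (blue) reach larger liquid levels than these, with AO090011000336 and zrfA furthest right among them.

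The 2 sets took unlike shares of the reads. The 210 higher genes together held 12282 and 13374 CPM in the agar libraries and 872 and 813 CPM in the liquid libraries. Their median level on agar was 29.9 CPM, and none averaged 1000 CPM or more in either culture. The 157 lower genes held 60921 and 45833 CPM in liquid and 4595 and 3077 CPM on agar, and 11 of them averaged 1000 CPM or more in liquid. Both sets had coding lengths like those of all tested genes, with medians of 1214 bp (higher), 1253 bp (lower) and 1206 bp (all).

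A strict contrast of read and unread genes ran in 1 direction. 42 genes of 11880 (0.354%) had at least 20 reads in each agar library and 0 reads in both liquid libraries, and 0 genes had the reverse pattern. At a minimum of 10 reads the counts were 57 and 5, and at 50 reads they were 22 and 0. Of the 42 genes, 22 lay in the runs of neighbouring genes described next, and 41 were read in both agar libraries treated with DTT. In the liquid libraries with DTT, 24 of the 42 again had 0 reads. Of all 11880 genes, 10640 and 10887 had reads in these agar libraries and 10128 and 10238 in these liquid libraries (replicates 1 and 2). A count of 0 did not always mean an unread gene, as 3 of the 42 had part of their length covered in a liquid library in the deposited coverage values. Among the 20 outside the runs, AO090038000099 had most reads, at 69.1 and 113 CPM on agar, at least 474-fold above liquid.

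Genes higher on agar stood next to each other. Genes were placed in the order of their locus tags, and a run was a stretch with at least 4 genes called in 1 direction and at most 1 tested gene between neighbours that was not. There were 5 such runs of higher genes and 1 of lower genes, which together held 49 of the 367 called genes and 44 (21.0%) of the 210 higher ones. Since these calls chose the runs, the untreated values of their members are a description and no test of them is given. Folds against liquid libraries with 0 reads are lower bounds against a floor of 3 reads over both libraries. For liquid totals of 1 to 3 reads the text gives the ratio and its exact 95% binomial interval, and floors and intervals cover counting error only.

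The longest run went from AO090001000032 to AO090001000061 on chromosome 2 and held 18 higher genes among 19 tested. The reference gives 6 of them symbols of the gliotoxin cluster of Aspergillus fumigatus, in which a nonribosomal peptide synthetase joins 2 amino acids and further enzymes add and shield a disulfide bridge. The symbols do not tell what the stretch makes in A. oryzae, and no product was measured. The peptide synthetase gene gliP (AO090001000043) had 153 and 159 CPM on agar and 0 reads in both liquid libraries, so that agar was at least 769-fold above liquid. The gene that opens the run, AO090001000032, had 136 and 169 CPM on agar, was also unread in liquid, and was likewise at least 769-fold above. Reads covered 91.7% and 96.4% of gliP on agar, so the signal was spread over the gene.

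The genes of 4 tailoring enzymes were read on agar and had few or no reads in liquid. gliI (AO090001000033), which in A. fumigatus encodes the carbon-sulfur lyase, had 133 and 126 CPM on agar and 0.178 and 0.438 CPM in liquid (8.55 ± 0.68). The glutathione S-transferase gene gliG (AO090001000040) had 83.7 and 84.6 CPM on agar and 0.178 and 0.329 CPM in liquid (8.22 ± 0.65). The cytochrome P450 gene gliC (AO090001000041) stood at 62.6 and 99.9 CPM against 0.357 and 0.219 CPM (8.12 ± 0.61). In all 3 both agar libraries lay far above both liquid ones. The dipeptidase gene gliJ (AO090001000042) had 233 and 154 CPM on agar but 1.61 and 0.11 CPM in liquid (7.95 ± 1.06), the liquid libraries differing more from each other than for its neighbours.

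Not all members of the run were silent in liquid. The methyltransferase gene gliM (AO090001000039) had 147 and 170 CPM on agar and 6.25 and 9.21 CPM in liquid, a log2 change of 4.35 ± 0.45. Its neighbour AO090001000038 had 70.0 and 67.5 CPM against 4.64 and 4.82 CPM (3.86 ± 0.45). AO090001000037 had 477 and 345 CPM on agar, and also 51.2 and 43.3 CPM in liquid (3.12 ± 0.55). These 3 genes lay side by side between stretches in which the liquid libraries had few reads. At the other end, AO090001000044 to AO090001000048 had 5.69 to 92.7 CPM on agar, and 4 of these 5 had 0 reads in liquid.

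Levels within the run could be compared per coding length, as recovered from the deposited coverage values. In RPKM, which is CPM per kilobase of coding sequence, gliP, the longest gene with 4878 bp, had 31.4 and 32.6 on agar, and gliG, with 666 bp, had 126 and 127. AO090001000037 had 505 and 365 RPKM, the highest of the run. By mean level per length on agar gliP ranked at place 14 of the 18 genes, and by CPM at place 4.

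The edges of the run were uneven. After AO090001000048 the 7 genes up to AO090001000058 that lacked reads for a test, and the tested AO090001000051, had at most 4.43 CPM on agar, and the run reached AO090001000061 only across them. That gene had 135 and 110.2 CPM on agar and 4.10 and 0.658 CPM in liquid (5.75 ± 1.08). Before the run lay gliK (AO090001000030), a further gene with a gliotoxin symbol, with 108 and 72.8 CPM on agar and 9.99 and 1.10 CPM in liquid. Its log2 change was 4.06 ± 0.97, at a Benjamini-Hochberg adjusted p of 0.0561 in edgeR, and of 0.00577 with the block. Its neighbours AO090001000029 and AO090001000031 were not called, so a second run, AO090001000024 to AO090001000028, stood apart by 3 genes. This gap hung on the call of gliK, since with the block, where gliK was called, the run rule joins both stretches. Under DTT all 3 genes of the gap were higher on agar. Their Benjamini-Hochberg adjusted p in edgeR was 0.0176 (AO090001000029), 0.0294 (gliK) and 0.0344 (AO090001000031).

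That second run held 4 higher genes, all tested genes of its stretch, to which the reference gives no symbols. AO090001000024 had 437 and 505 CPM on agar and 2.32 and 0.987 CPM in liquid (8.18 ± 0.67). AO090001000028 had 149 and 161 CPM on agar and 0.535 and 0.438 CPM in liquid (8.29 ± 0.58). The shorter AO090001000025 and AO090001000026 had 18.2 to 29.4 CPM on agar, the first with 3 reads in liquid (ratio 144, 95% interval 49.1 to 703) and the second with 0 (at least 92.4-fold). All 4 stayed called without each of the 4 libraries. A lower gene, AO090001000021, lay 3 tags before it, with 13.6 and 8.01 CPM on agar and 194 and 52.5 CPM in liquid.

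**Figure D2:**
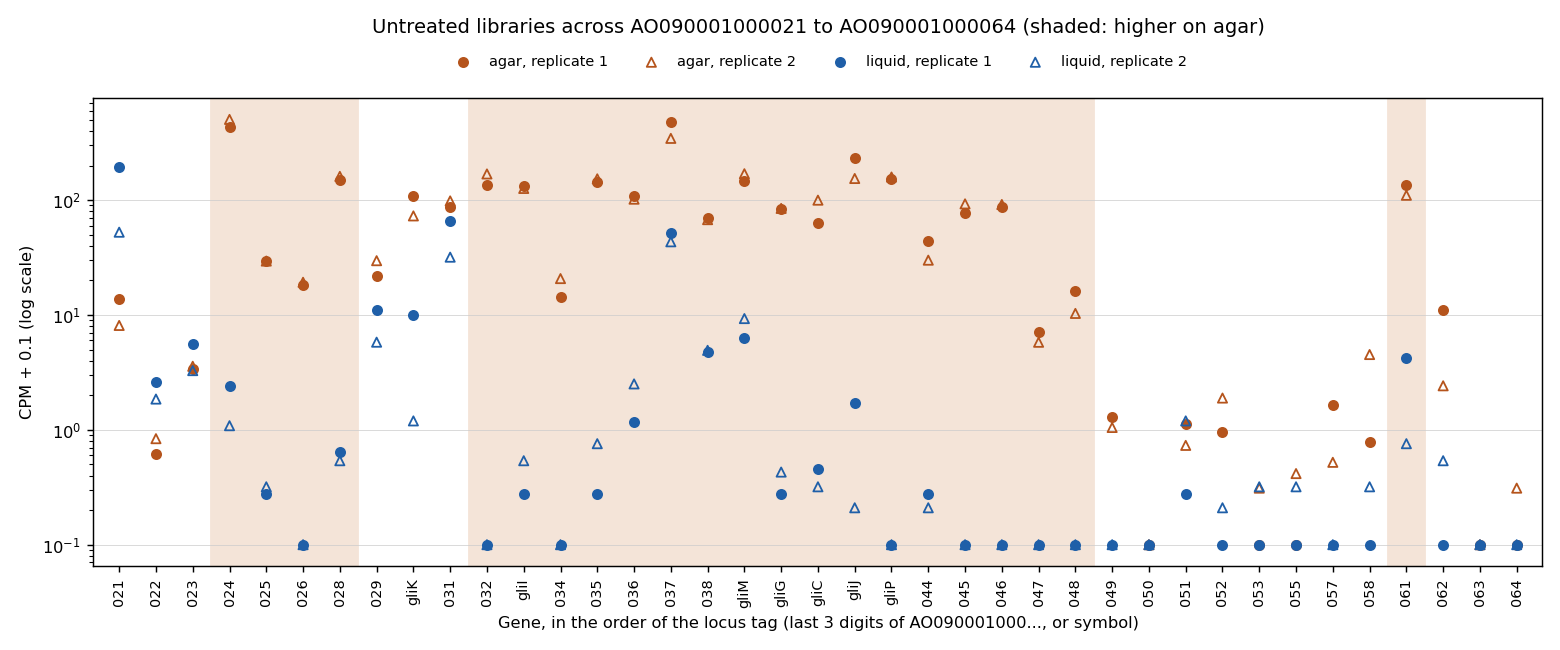
CPM + 0.1 (log scale) in the 4 untreated libraries for the genes from AO090001000021 to AO090001000064 in tag order, brown for agar and blue for liquid, circles for replicate 1 and triangles for replicate 2. The shaded genes were higher on agar; in most of them the liquid points lie at or near 0, except for AO090001000037, AO090001000038 and gliM.

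A further stretch, AO090026000575 to AO090026000586 on chromosome 3, held 10 higher genes among 11. AO090026000585, the longest at 4017 bp, had 53.1 and 83.5 CPM on agar and 0.357 and 0 CPM in liquid, a ratio of 530 (95% interval 146 to 4380). 7 of the 10 had 0 reads in liquid, among them AO090026000579 (26.1 and 52.2 CPM on agar, at least 208-fold) and AO090026000578 (33.5 and 42.4 CPM, at least 191-fold). Per length the 10 genes had between 7.91 and 33.3 RPKM in single agar libraries. The exception within the stretch was AO090026000576, with 136 and 58.9 CPM on agar and 1.43 and 0 CPM in liquid, with 12.2% of it covered in the library with a count of 0. Its log2 change was 7.26 ± 1.80, with a Benjamini-Hochberg adjusted p of 0.0632 in edgeR, and it was called with the block.

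On chromosome 5, AO090701000860 to AO090701000867 were all higher, 8 of 8. AO090701000861 had 57.6 and 148 CPM on agar and 0 and 0.219 CPM in liquid (ratio 835, 95% interval 231 to 6902). Its coverage in liquid was 25.1% in the replicate with a count of 0 and 14.7% in the other, so that the counts leave out reads there and the ratio rests on the counts alone. AO090701000862 had 23.6 and 52.8 CPM on agar and 0 reads in liquid, at least 205-fold. In all, 6 of the 8 had 0 reads in liquid. AO090701000867 closed the run at 50.2 and 54.0 CPM against 0.714 and 0.219 CPM (6.87 ± 0.69). After the run, AO090701000868 had 1.38 and 0.422 CPM on agar and too few reads for a test. Before it, AO090701000859 had 13.8 and 17.2 CPM on agar and 3.21 and 1.32 CPM in liquid (2.80 ± 1.002), and it was called by DESeq2 (Benjamini-Hochberg adjusted p = 0.0420) but not by edgeR (0.176).

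The last run of higher genes, AO090010000691 to AO090010000694 on chromosome 8, had few reads. AO090010000693 had 12.4 and 26.6 CPM on agar and 0.714 and 0.548 CPM in liquid (4.94 ± 0.70). AO090010000691 had 2.92 and 3.69 CPM on agar and 0 reads in liquid, and reads covered only 16.4% and 25.4% of it. Without agar replicate 1 a single gene of this run was called, and without any other library none.

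The run of lower genes was AO090124000050 to AO090124000054 on chromosome 5, with 5 genes of 5. AO090124000052 had 19.1 and 12.1 CPM on agar and 227 and 118 CPM in liquid (-3.47 ± 0.58). AO090124000051 had 11.0 and 10.4 CPM on agar and 121 and 136 CPM in liquid (-3.58 ± 0.47). Unlike the higher runs, no member was silent, the lowest value on agar being 8.94 CPM in AO090124000054. None of the 5 was called without agar replicate 1 or without agar replicate 2.

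**Figure D3:**
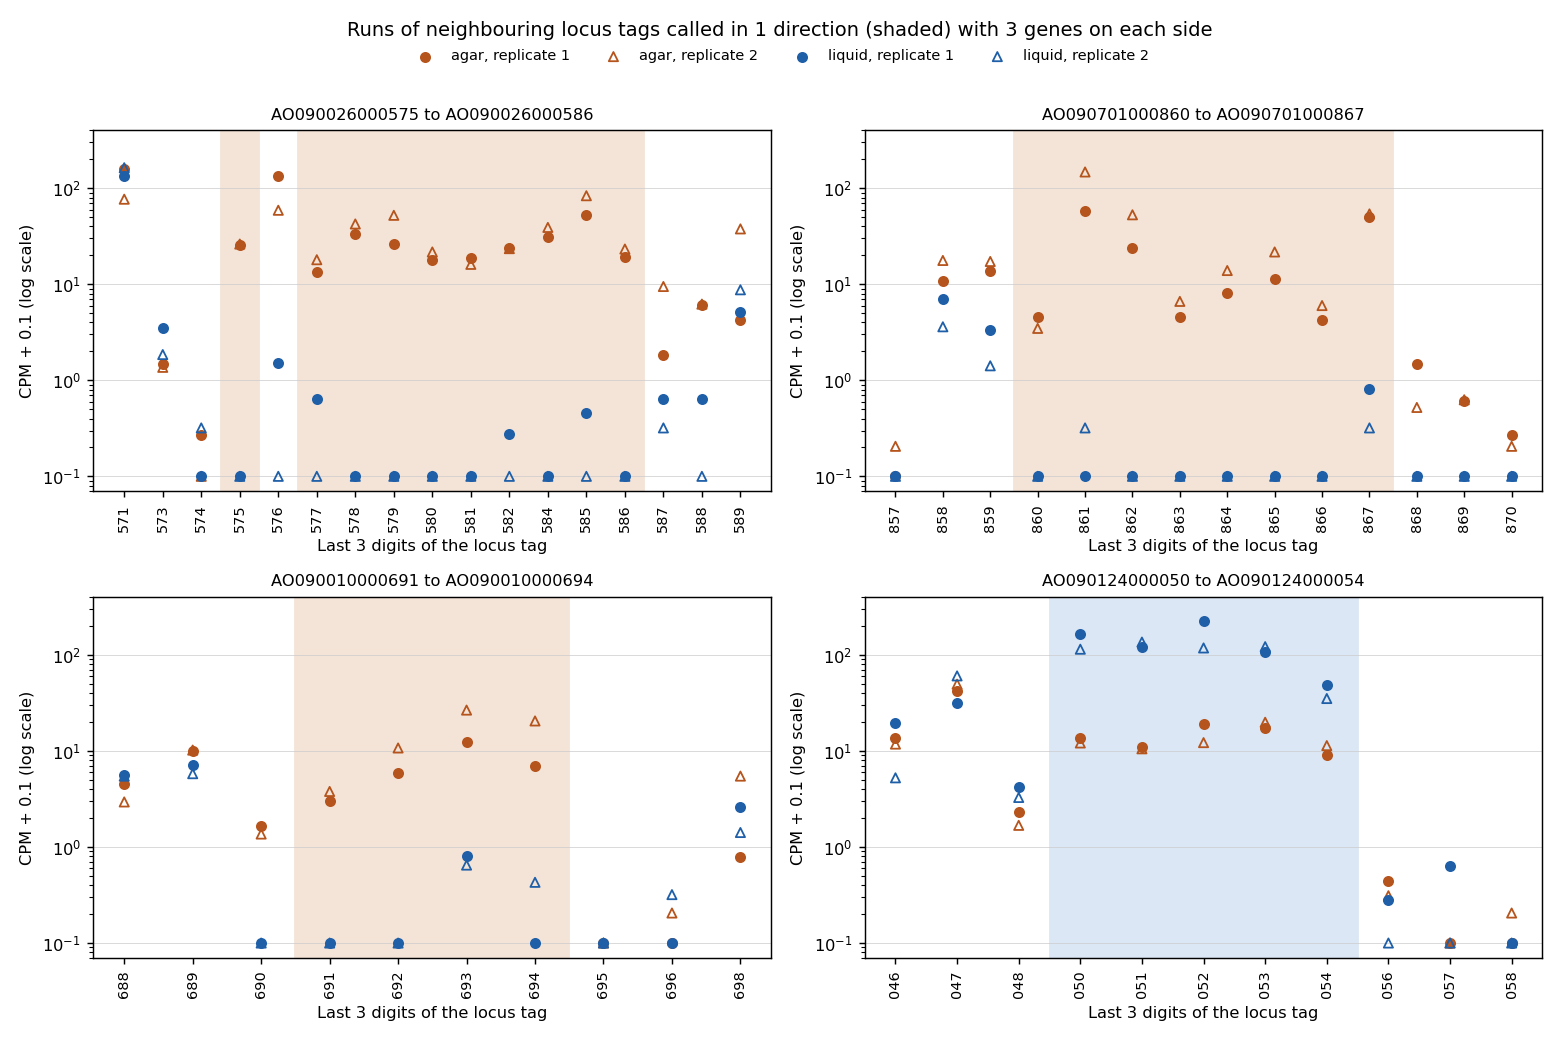
CPM + 0.1 (log scale) in the 4 untreated libraries for the other 4 runs (shaded) and 3 genes on each side, in tag order, with brown for agar and blue for liquid. In the runs of higher genes most liquid points lie at 0, while in AO090124000050 to AO090124000054 agar points lie at 8.94 to 19.8 CPM and liquid points at 35.1 to 227 CPM.

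Of the 49 run genes, 30 were called without agar replicate 1, 27 without agar replicate 2, 34 without liquid replicate 1 and 33 without liquid replicate 2, and 26 were called every time. With at least 3 called genes in place of 4, there were 11 further runs, 7 higher and 4 lower. AO090038000098 to AO090038000100 was one of the higher ones and held AO090038000099, described above. In AO090038000210, AO090038000212 and AO090038000213 all liquid libraries had 0 reads, and AO090038000212 led with 35.9 and 17.2 CPM on agar, at least 119-fold. Of the lower ones, AO090011000335 to AO090011000337 held the lower gene with most reads. AO090011000336 had 691 and 257 CPM on agar and 13414 and 9096 CPM in liquid (-4.57 ± 0.91), and its neighbour AO090011000335 had 172 and 55.4 CPM against 3217 and 1394 CPM (-4.34 ± 0.84).

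Among the 695 tested genes with a symbol, 19 were higher and 8 were lower. Of 17 tested genes of secondary metabolism 6 were higher, all of them gli genes, and gliK was added by the block. Beside the gli genes, cell wall genes were among the larger rises. Of 31 cell wall genes 3 were higher and none lower, with a median log2 change of -0.38 over the list and of 0.03 over all tested genes. The gene of an alpha-1,3-glucan synthase, ags2 (AO090026000523), had 113 and 209 CPM on agar and 1.61 and 1.86 CPM in liquid (6.51 ± 0.72), and it was called without each library in turn. Its relatives were not called, ags1 (AO090003001500) standing at 312 and 503 CPM on agar and 157 and 235 CPM in liquid (1.06 ± 0.60) and ags3 (AO090010000106) at -1.52 ± 0.88. The exoglucanase gene exg1 (AO090003000990) had 11.5 and 19.5 CPM against 1.25 and 1.64 CPM (3.40 ± 0.59). The chitinase gene chi3 (AO090020000231) had 3.27 and 2.53 CPM on agar and 0 reads in liquid, at least 13.8-fold. Chitin synthase genes showed no call, for example chsC (AO090012000084) with 0.30 ± 0.43 and chsB (AO090206000079) with -0.92 ± 0.78.

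Iron uptake genes were higher on agar in 3 of 12 tested (2.23% of all tested genes were), and none was lower. The siderophore transporter gene sit1 (AO090005000471) had 499 and 340.2 CPM on agar and 42.6 and 65.9 CPM in liquid (2.95 ± 0.49). Another siderophore transporter gene, mirB (AO090701000329), had 25.6 and 24.7 CPM on agar and 0.178 and 0 CPM in liquid, a ratio of 369 (95% interval 65.8 to 14594), although 4.84% of it was covered in the liquid library with a count of 0. sidJ (AO090103000170), whose product in A. fumigatus cleaves a siderophore inside the cell, had 83.2 and 52.1 CPM on agar and 1.25 and 6.25 CPM in liquid (4.13 ± 0.92). With the block 5 iron genes were higher (4.08% of all tested genes were). It added sidH (AO090103000168), with 11.7 and 8.43 CPM against 0 and 0.767 CPM. It also added sidD (AO090103000167), with 43.5 and 45.8 CPM against 7.85 and 14.7 CPM. sidD, sidH and sidJ have near locus tags, and between the last 2 lies AO090103000169, which was higher with 8.77 and 4.53 CPM on agar and 0 reads in liquid. Not called were the iron regulators hapX (AO090102000597; 0.37 ± 0.41) and sreA (AO090026000719; -0.49 ± 0.40). The list median was 1.58. No member of it was called without each library in turn.

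Zinc uptake went the other way. Of 4 genes 2 were lower, 3 with the block, and the list median was -2.89. Of all tested genes 1.66% were lower, and 4.09% with the block. The zinc transporter gene zrfA (AO090003001296) had 123 and 70.0 CPM on agar and 5399.6 and 4816 CPM in liquid (-5.73 ± 0.84). This was the largest fall among genes with a symbol. zrfB (AO090005001514), of the same transporter family, had 101 and 73.3 CPM on agar and 718 and 757 CPM in liquid (-3.08 ± 0.55). In both genes the libraries of the cultures were far apart. zrfC (AO090005000940) had 1893 and 726 CPM against 8872 and 8264 CPM (-2.71 ± 0.81), with a Benjamini-Hochberg adjusted p of 0.109 in edgeR and of 0.0474 with the block. Both genes next to zrfA by tag were lower too, AO090003001297 with 3.78 and 2.53 CPM against 46.0 and 40.1 CPM (-3.78 ± 0.52) and AO090003001295 with 0.344 and 0.316 CPM against 10.5 and 6.47 CPM (-4.62 ± 1.04). Without either agar library neither zrfA nor zrfB was called, and without either liquid library zrfA was called but zrfB was not.

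**Figure D4:**
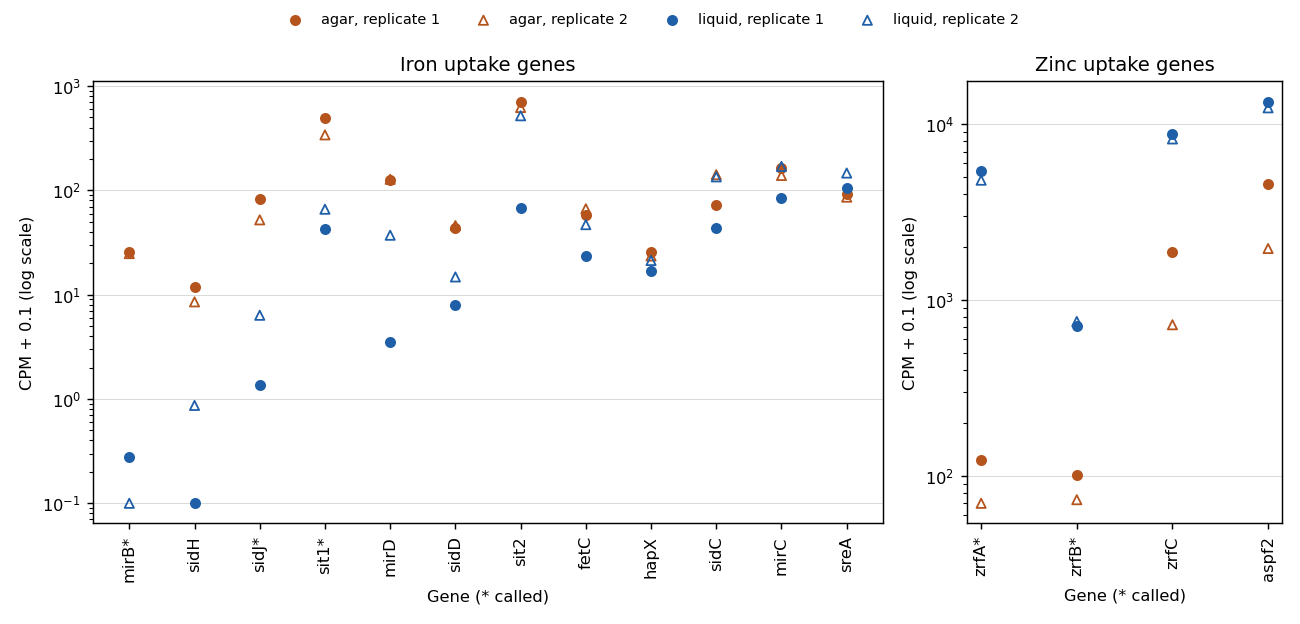
CPM + 0.1 (log scale) in the 4 untreated libraries for 12 iron uptake genes and 4 zinc uptake genes, brown for agar and blue for liquid, circles for replicate 1 and triangles for replicate 2; an asterisk marks a called gene. For mirB, sidJ and sit1 both agar points lie above both liquid points, and for all 4 zinc genes both agar points lie below.

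Further genes with a symbol were higher on agar, as were 2.23% of all tested genes. The calcium pump gene pmcB (AO090003000614) had 148 and 104 CPM on agar and 4.82 and 10.6 CPM in liquid (4.01 ± 0.58). Its neighbour by tag, AO090003000613, went the opposite way, with 275 and 64.3 CPM on agar and 3015 and 2109 CPM in liquid (-3.92 ± 0.88). The transporter gene mfsA (AO090038000167) had 246 and 142 CPM against 24.8 and 17.0 CPM (3.22 ± 0.56), the 1 call among 7 efflux genes, to which the block added atrA as lower. The alpha-glucosidase gene agdC (AO090005001084), the 1 gene of the starch hydrolysis list, which held only genes with a symbol, had 80.5 and 124 CPM against 9.81 and 14.8 CPM (3.05 ± 0.49). Of 15 genes of amino acid synthesis, ilv3 (AO090023000127), for the dihydroxyacid dehydratase of branched-chain amino acids, was higher with 233 and 393 CPM against 38.5 and 53.5 CPM (2.76 ± 0.58), and so was lysB (AO090005001561) of lysine synthesis (2.80 ± 0.53); leu2A was higher with the block.

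Among genes lower on agar were those of 2 of 5 tested peptidases with a symbol and 2 of 11 genes of protein glycosylation. Of all tested genes 1.66% were lower. cp1 (AO090701000220) had 194 and 229 CPM on agar and 1421 and 1721 CPM in liquid (-2.89 ± 0.54), and cp3 (AO090103000332) had 326 and 228 CPM against 1287 and 1945 CPM (-2.54 ± 0.58), while the peptidase gene dppIV was higher with the block. The glucosidase gene cwh41 (AO090701000141), whose product trims new N-glycans in the endoplasmic reticulum, had 130 and 94.8 CPM against 582 and 542 CPM (-2.32 ± 0.46). The mannosyltransferase gene och3 (AO090010000615) had 1.55 and 1.48 CPM against 21.9 and 17.3 CPM (-3.69 ± 0.51), and the genes 2 and 3 tags before it were lower as well. ergS (AO090011000521) had 1.20 and 3.16 CPM against 97.6 and 65.8 CPM (-5.18 ± 0.93), and nfr1 (AO090038000584) had 95.3 and 96.2 CPM against 435 and 531 CPM (-2.33 ± 0.50).

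Several of the strongest differences belonged to genes without a symbol. AO090012000143 had 554 and 647 CPM on agar against 3.93 and 1.97 CPM in liquid (7.68 ± 0.70). With 1265 and 1478 RPKM on agar it was the highest of all higher genes per recovered length. AO090020000588 had 331 and 314 CPM against 2.86 and 1.75 CPM (7.14 ± 0.74). Both were called without each library in turn. AO090023000590 had 173 and 527 CPM against 10.5 and 17.4 CPM (4.64 ± 0.68). In AO090701000316 the agar libraries themselves differed widely, at 195 and 6.43 CPM, against 0.178 and 0 CPM in liquid. Of the lower ones, AO090005000026 had 229 and 65.3 CPM against 4184 and 4444 CPM (-4.88 ± 1.09) and AO090003000790 had 25.5 and 14.3 CPM against 1910.0 and 955 CPM (-6.17 ± 0.73). AO090023000536 had 2.92 and 1.48 CPM against 763 and 270.2 CPM (-7.89 ± 0.90), and the neighbours AO090023000430 and AO090023000431 had 0.843 to 9.46 CPM on agar and 78.0 to 2248 CPM in liquid.

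No gene was called in 17 of the 26 lists examined. Of all 695 tested genes with a symbol, 399 had values above 0 and 296 below. Genes of the cytosolic ribosome all had values above 0, with a median log2 change of 1.34 over 5 genes, rps1 (AO090009000715) having 4034 and 3698 CPM on agar and 2011 and 1050 CPM in liquid. Of 23 ribosome assembly genes 20 had values above 0, with a median of 1.30 and 3 higher with the block, cbf5, mak5 and rrp36. With the block 4.08% of all tested genes were higher and 4.09% lower. All 10 genes of the tricarboxylic acid cycle and respiratory chain also had values above 0 (median 0.89), and cox15 was higher with the block. All 5 autophagy and vacuole genes had values below 0, the kinase gene atg1 (AO090023000647) at 32.8 and 25.5 CPM against 93.5 and 133 CPM (-1.96 ± 0.46), and atg1 was lower with the block. The lists of nitrate and ammonium use (2 tested genes), glycolysis (5), sterol synthesis (17), thiol and peroxide defence (9), chaperones (7), folding in the endoplasmic reticulum (8), oligopeptide transport (4), sugar transport (1), cell division (12) and the pH and light response (2) had no call with or without the block. Plant wall hydrolases (9) had 2 lower genes with the block, pgxB and manF, and osmotic signalling (4) had 1 higher gene, treA.

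Of 15 genes listed for spore formation and spore pigment, taken as markers of structures that a plate could hold, none was called without DTT. The 15 do not include abaA or the rodlet genes that were also planned as markers. Their summed level was 581 and 797 CPM on agar and 1214 and 995 CPM in liquid. This sum is no measure of spores, as esdC (485 and 205 CPM), steA, medA and veA were its largest members in liquid. The log2 change was above 0 in 7 of the 15 (brlA, ayg1 and pksP among them) and below 0 in 8 (wetA and vosA among them). The regulator of spore formation brlA (AO090005001041) had 8.08 and 9.80 CPM on agar and 2.86 and 1.10 CPM in liquid (2.21 ± 0.62), and under DTT it was higher on agar (2.85 ± 0.63; edgeR, Benjamini-Hochberg adjusted p = 0.0486). Its later partner wetA (AO090009000260) had 17.7 and 14.1 CPM against 33.7 and 12.4 CPM. Of the spore pigment genes, ayg1 (AO090005000332) had 1.38 and 4.32 CPM on agar and 0 and 0.11 CPM in liquid, and pksP (AO090102000545) had 28.2 and 60.1 CPM against 18.6 and 27.4 CPM. With the block, ayg1 was called higher and esdC (AO090038000569) lower, and DESeq2 called ayg1 and brlA higher and esdC and medA lower. Under DTT the block called pksP higher and wetA lower. The part of such structures in the differences between the cultures was not tested.

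The libraries given DTT showed which of these differences were also found in separate libraries of the 2 cultures. Per the labels the agar mycelium with DTT was also soaked in medium, so DTT and soaking cannot be told apart there. Of the 210 higher genes, 192 had a value above 0 under DTT, as did 50.7% of all tested genes. There 99 of the 210 were called higher (2.35% of all tested genes were). Of the 157 lower genes, 122 were below 0 under DTT (49.3% of all tested genes) and 11 were called lower (0.593% of all tested genes). With the block these counts were 126 (6.87% of all tested genes were called higher) and 45 (3.64% lower). Of the 44 higher run genes 34 were called again, and the median log2 change of the 210 genes was 5.42 without and 3.87 with DTT. For the 157 lower genes the medians were -3.46 and -1.11. The untreated contrast chose both sets, which favours large untreated values, so these medians do not measure an effect of DTT. They also use the fitted values of 50 higher genes with 0 reads in both untreated liquid libraries.

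In the gli run 16 of 18 genes were called again under DTT. gliP then had 66.0 and 69.7 CPM on agar and 0 and 0.317 CPM in liquid, a ratio of 317 (95% interval 108 to 1538; edgeR, Benjamini-Hochberg adjusted p = 0.00277). AO090001000061, at the far end, was an exception, with 1.96 and 0.450 CPM on agar and 2.26 and 0.317 CPM in liquid under DTT. The runs AO090001000024 to AO090001000028 and AO090026000575 to AO090026000586 kept 4 of 4 and 9 of 10 calls (10 with the block). In AO090701000860 to AO090701000867 2 of 8 were called under DTT, and all 8 had values above 0. On agar with DTT 7 of these 8 genes had 0.163 to 16.6 CPM. AO090010000691 to AO090010000694 kept 3 of 4 calls (4 with the block) and AO090124000050 to AO090124000054 kept 1 of 5. In the shorter runs 15 of 21 higher and 1 of 12 lower genes were called again.

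ags2 (4.83 ± 0.66), chi3, ilv3 (3.52 ± 0.63) and agdC (3.42 ± 0.51) were also higher under DTT, and mirB (1.23 ± 0.995), sidJ (-0.65 ± 0.88), mfsA (-0.31 ± 0.53) and pmcB (1.44 ± 0.52) were not called there. Of the symbolled lower genes none was called under DTT, zrfA standing at -2.67 ± 0.73, but with the block zrfA and zrfB were lower there (Benjamini-Hochberg adjusted p of 0.0255 and 0.0390 in edgeR). These counts do not show that a difference belonged to untreated mycelium, which needs a test of the difference itself. By that test, the interaction of culture and DTT in edgeR's quasi-likelihood fit, 0 genes passed at an adjusted p under 0.05 and 1003 had an unadjusted p under 0.05, while 23 passed with the block and 211 in DESeq2. sit1 and AO090020000542, the second named after its values were seen, were called in opposite directions without and with DTT.

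**Figure D5:**
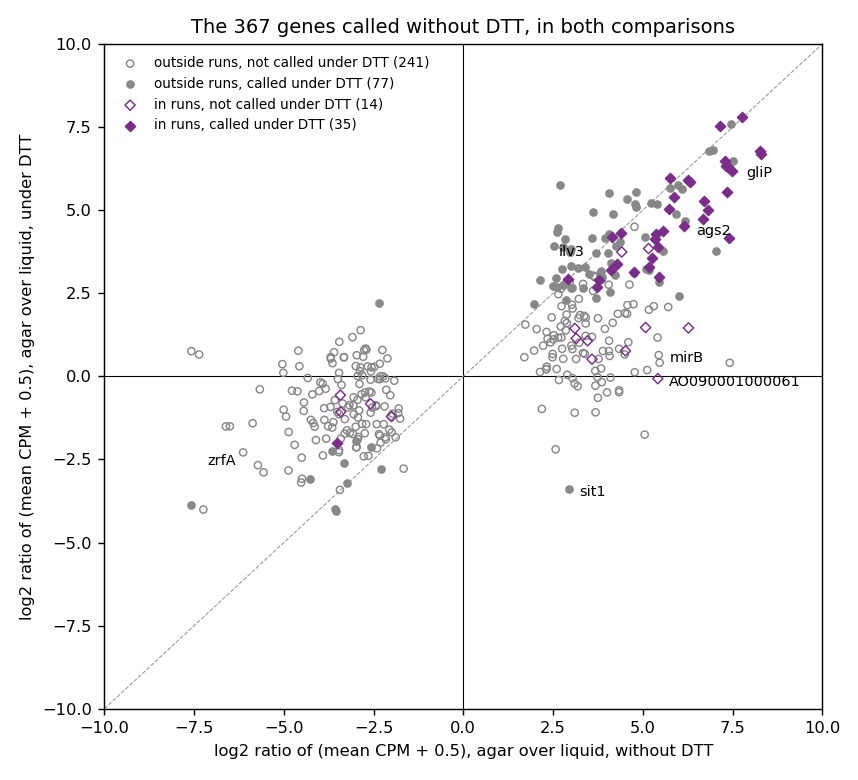
Log2 ratio of agar over liquid, from mean CPM + 0.5, without DTT (x axis) and under DTT (y axis) for the 367 genes called without DTT; diamonds are run genes, and filled symbols were called under DTT. Genes at the right mostly lie above 0 on the y axis (192 of 210 in the fit), sit1 lies far below it, and those at the left scatter around or below it.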

How the data were processed

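Per the labels' protocols, oligo-dT beads selected the RNA, random primers started the cDNA, and both ends of each fragment were read for 44 bp. The molecule field names polyA RNA for replicate 1 and total RNA for replicate 2. Per the file headers, the authors deposited counts of mapped reads for each gene and a coverage fraction, the share of its length with reads. Not given in the sources used here are the aligner, build, annotation, strand setting and handling of multiply mapped reads, so overlapping, antisense and near-identical genes cannot be told apart. All 11880 locus tags matched the RefSeq table of assembly ASM18445v3, used for symbols (714 of 12347 genes), chromosome numbers and gene order only; genes without a symbol are given by locus tag. Coding lengths, meant to come from protein records, were instead recovered from the denominators of the deposited coverage fractions (99.0% of protein-coding genes). A length recovered in this way can be a divisor of the true length, and RPKM is then too high. Of these lengths 99.4% were multiples of 3, which does not detect such divisors.

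Counts of all 8 libraries were fitted with edgeR 4.0.16 in R 4.3.3 (filterByExpr with a minimum count of 10, TMM, glmQLFit, glmQLFTest, 1 coefficient per condition, 4 residual degrees of freedom), with Benjamini-Hochberg adjustment over all 9438 tested genes. The SE is log2 fold change over the square root of F. The block is the replicate number, which coincides with the insert size and the molecule field and pairs the libraries: differences between replicates correlated at 0.24 to 0.512 between conditions. The fit with this block is given where a call changed or a count moved more than 1.5 times. The 2 untreated libraries of each culture differed by more than counting noise (chi-square over its degrees of freedom, 246 and 166), which does not tell separate cultures from separate preparations of 1 RNA. A count of 0 came with a coverage above 0 for 140 to 274 genes per untreated library.

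Named genes were the 12 largest rises and falls with a symbol and at least 20 CPM, the 6 largest without one (at least 100 CPM), the 6 largest CPM differences, up to 4 genes per list, run members and spore markers. Genes beside runs, other list members and runs of 3 were named after their values were seen. The lists hold genes with a symbol only. The comparison, lists and markers were chosen with earlier results of these data known. Alternatives were other scalings, filters, samples, DESeq2 1.42.0, the block, other run rules and leaving out each library. Sequences were not used here.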

Additional observations from a re-analysis of the deposited data

Results flagged for a closer look

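sit1, the siderophore transporter gene, was called in opposite directions in untreated and DTT-treated mycelium, which is why it is listed here. Without DTT it had 499 and 340.2 CPM on agar and 42.6 and 65.9 CPM in liquid (2.95 ± 0.49). Under DTT it had 38.4 and 30.4 CPM on agar and 354 and 370 CPM in liquid (-3.40 ± 0.50). The difference of the culture effects was 6.35 ± 0.71 on the log2 scale. Its Benjamini-Hochberg adjusted p in edgeR was 0.0799, the smallest of all genes for this difference, and 0.0269 with the replicate number as the block. The change without DTT was not called when any 1 of the 4 untreated libraries was left out (adjusted p 0.0604 to 0.121 in edgeR).

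AO090020000542, a gene without a symbol that was singled out after its values were seen, showed the reverse pattern. It had 11.7 and 14.3 CPM on agar and 95.1 and 40.9 CPM in liquid without DTT (-2.38 ± 0.52), and 6.20 and 5.48 CPM against 1.13 and 0.634 CPM under DTT (2.78 ± 0.61). The difference was -5.16 ± 0.81, with a Benjamini-Hochberg adjusted p of 0.0917 in edgeR, and of 0.0431 with the block. Without DTT it was called in 1 of the 4 fits that leave out an untreated library (adjusted p 0.0392 to 0.265 in edgeR).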

How the results depend on the processing

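No called gene changed its sign under any of the 13 other fits. The 210 higher and 157 lower genes, the 6 runs and the 22 calls within gene lists were within 1.5 times of these counts with median-of-ratios or upper-quartile factors, without rRNA genes, at a minimum of 50 reads in 2 libraries and in the 4 untreated libraries alone; without a filter on low counts 255 genes were lower. With the replicate block, which pairs the libraries by replicate number, 385 genes were higher and 386 lower, with 15 runs and 39 calls in lists. In the 4 untreated libraries with the block these were 516, 509, 25 and 43. DESeq2 called 453 higher and 437 lower genes (9.43% of tested genes), with 17 runs and 45 calls in lists. Both the block and DESeq2 called all 367 genes again, and both found 45 of the lower genes also lower under DTT, in place of 11. Among the genes named, the block changed no call without DTT beside those printed; under DTT it also called AO090003000613, AO090003000790, AO090003001295, AO090005000026, AO090026000576, atg1, cbf5, cox15, dppIV, mak5 and zrfC. Leaving out each library in turn gave 64 to 80 higher genes, 3 to 113 lower genes, 2 to 3 runs and 7 to 11 calls in lists; of the 84 called genes that the naming rule gave, 33 to 47 were called. The median log2 change of all genes stayed between -0.05 and 0.08. A minimum of 3 called genes gave 17 runs. The difference between the culture effects gave 23 calls with the block and 211 in DESeq2, both chosen after seeing the data. The place of gliP in its run moved from 14 to 4 without length scaling. Low counts limit the folds of genes that were unread in 1 culture, for which only bounds are given.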

Other observations

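Called genes were unevenly spread over the genome, a count made after the data were seen. Among the 50 outermost genes at each chromosome end, in the order of the RefSeq table, 60 of 443 tested genes were called (13.5%; 49 higher, 11 lower), and of the other genes 3.42%. Without the genes of the runs, 31 of 414 (7.49%) were called at the ends and 3.20% elsewhere. With 25 genes per end the share was 7.54%, and with 100 genes it was 8.59%. By chromosome the share called went from 1.89% on chromosome 1 to 6.99% on chromosome 8. The runs AO090001000024 to AO090001000028 and AO090001000032 to AO090001000061 lay 21 and 28 genes from an end of chromosome 2, AO090701000860 to AO090701000867 lay 35 genes from an end of chromosome 5, and the others lay at least 502 genes inside.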
